A study of Mus musculus with 6 samples.

Results

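The deposited data hold H3K4me3 peaks of sorted mouse cochlear cells, and 622 of the marked regions recurred outside protein-coding genes. Overlapping peaks of the 4 libraries were merged into 24104 regions, of which 12441 held a peak in at least 2 libraries. The 622 reproducible intergenic regions were chosen by 2 conditions: a peak in at least 2 libraries, and a place more than 1 kb from the start and end of every protein-coding gene with no overlap of one (mm10). Presence of a peak therefore chose them, and their presence patterns are given as a description, with no test. The other reproducible regions were 9653 at gene ends (within 1 kb of a start or end) and 2166 inside genes.

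The series has 6 samples, of which the 2 input libraries were not analysed here. Cochleae of Lgr5-EGFP-creERT2 mice of the C57BL/6 strain, of either sex and aged postnatal day 0 to 3, were cultured in a medium with growth factors, and dissociated cells were sorted in the GFP channel. All 4 H3K4me3 libraries come from such cells. The neomycin group (2 libraries) was treated with neomycin for 12 h and the untreated group (2 libraries) was not. Neomycin, an aminoglycoside, is toxic to the sensory hair cells of the ear. Lgr5 is a receptor that marks a subset of supporting cells, which can act as progenitors in the newborn cochlea. In this reporter line the fluorescent protein and the inducible recombinase are driven from the Lgr5 locus, so the sort follows activity of that locus. The number of animals per library is not given in the sources used here, and nothing says that a group's 2 libraries were separate cultures, so any p-value measures only the spread between these libraries. The labels give 1 H3K4me3 antibody for all 4 libraries, while the deposited names of both untreated lists read H3K4me2. H3K4me3 is taken from the labels here, which leaves some doubt about the mark in the untreated lists in every comparison of groups.

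Trimethylation of lysine 4 of histone H3 is deposited around the start sites of transcribed genes, mostly over CpG-rich promoters. It marks the starts of long non-coding RNAs (lncRNAs), miRNA host transcripts and other non-coding genes as well as those of coding genes, and weaker marks are found at some active enhancers. Regions away from coding genes can therefore hold non-coding promoters, distal elements, or signal that does not come from a gene start.

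The labelled cell type was checked at gene ends. The same count over all coding genes was not made, so the numbers only compare these lists with each other. Of 37 supporting and progenitor cell genes, 21 had a marked end in all 4 libraries, among them Lgr5, Sox2, Sox9, Prox1, Jag1 and Fgfr3. An end of 30 of the 37 was marked in at least 1 library, and those of Bmp4, Epyc, Lgr6, Otol1, Pax2, Pax8 and Tectb in none. Of 29 hair cell genes 0 had a marked end in all 4 libraries and 15 had one in at least 1, with 3, 5, 13 and 6 genes in the order neomycin 1, neomycin 2, untreated 1, untreated 2. The same counts for 20 spiral ganglion neuron genes were 3, 6, 7 and 6, for 24 mesenchyme and fibrocyte genes 2, 1, 7 and 6, for 13 glial genes 3, 2, 5 and 3, for 13 melanocyte and stria genes 4, 3, 4 and 1, for 11 endothelial genes 2, 2, 2 and 1, and for 15 macrophage and blood genes 0, 0, 1 and 0. An end was marked in all 4 libraries for 2 of the neuron genes, 1 of the glial genes and 1 of the mesenchyme genes. In the melanocyte, endothelial and macrophage lists 0 genes had one. The lists overlap: the glial gene, Sox10, is also among the 21 supporting and progenitor genes. Isl1 and Gata3 stand in both the neuron and the supporting cell lists. The part of other cell types in the intergenic regions was not tested. The 4 lists differed in make-up: they held 14203, 11545, 15938 and 10520 peaks in that order of libraries, with shortest peaks of 48, 110, 187 and 234 bp and median peak lengths of 70, 142, 310.5 and 340 bp. Several regions named below have 1 of these shortest lengths in a library, which is the floor of that list. With no read totals in the lists the depth is unknown, and presence in a list cannot be told apart from the sensitivity of that list.

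A part of these regions sat at the starts of non-coding transcripts, and the promoters of 6 such transcripts are shown because their patterns run from marked in every library to marked in 1 group only. Each is the RefSeq promoter on GRCm38.p6, 250 bases before to 50 after the annotated start, 5′ to 3′ on the strand of the gene, with every CpG in capitals. Dancr, a lncRNA studied for holding back differentiation, had a region 50 bp from its start (chr5:74093110-74093500) in all 4 libraries. Mirc35hg, the host transcript of the miR-183, miR-96 and miR-182 cluster that is expressed in sensory hair cells, had 1 region in all 4 libraries (chr6:30174396-30175135) and 1 in the untreated libraries only (chr6:30173273-30173831). Chaserr, a lncRNA next to Chd2 that restrains its expression, was marked in neomycin replicate 1 and both untreated libraries (chr7:73557679-73558507). Tunar, a lncRNA known from embryonic stem cells and neural tissue, was marked in both untreated libraries only (chr12:105336972-105337361). C130071C03Rik, the host of Mir9-2, had 2 regions within 1 kb of a start, in neomycin replicate 2 with untreated replicate 1 and in both untreated libraries only. Gm10863, a lncRNA beside Sox10, was marked in both neomycin libraries only (chr15:79166195-79166419).
Dancr (chr5:74092810-74093109, plus strand): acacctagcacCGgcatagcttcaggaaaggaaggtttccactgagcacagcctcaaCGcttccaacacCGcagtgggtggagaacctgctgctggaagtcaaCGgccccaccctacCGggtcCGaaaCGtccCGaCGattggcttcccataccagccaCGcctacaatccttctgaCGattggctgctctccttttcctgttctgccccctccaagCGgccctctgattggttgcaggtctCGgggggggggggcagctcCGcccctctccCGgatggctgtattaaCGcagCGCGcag
Mirc35hg (chr6:30174076-30174375, minus strand): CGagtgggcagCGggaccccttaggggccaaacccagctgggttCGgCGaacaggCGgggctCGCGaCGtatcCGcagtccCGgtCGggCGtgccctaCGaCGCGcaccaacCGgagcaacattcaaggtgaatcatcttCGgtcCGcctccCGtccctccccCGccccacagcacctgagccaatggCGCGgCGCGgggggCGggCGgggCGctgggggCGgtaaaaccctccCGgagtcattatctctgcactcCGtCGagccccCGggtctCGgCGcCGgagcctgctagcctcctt
Chaserr (chr7:73558346-73558645, minus strand): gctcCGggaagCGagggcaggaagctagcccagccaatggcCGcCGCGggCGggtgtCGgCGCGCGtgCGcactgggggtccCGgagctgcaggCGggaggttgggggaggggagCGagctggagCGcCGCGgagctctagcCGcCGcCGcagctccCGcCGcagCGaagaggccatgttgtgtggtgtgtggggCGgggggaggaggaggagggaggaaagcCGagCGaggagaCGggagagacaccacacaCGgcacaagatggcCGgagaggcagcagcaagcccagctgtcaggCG
Tunar (chr12:105336743-105337042, plus strand): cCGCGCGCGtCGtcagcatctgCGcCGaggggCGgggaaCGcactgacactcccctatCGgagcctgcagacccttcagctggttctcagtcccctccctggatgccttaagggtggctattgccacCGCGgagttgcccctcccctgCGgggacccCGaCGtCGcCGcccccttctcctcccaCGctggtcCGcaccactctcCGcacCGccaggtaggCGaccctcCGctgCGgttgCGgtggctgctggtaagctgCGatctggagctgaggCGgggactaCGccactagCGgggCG
C130071C03Rik (chr13:83732243-83732542, plus strand): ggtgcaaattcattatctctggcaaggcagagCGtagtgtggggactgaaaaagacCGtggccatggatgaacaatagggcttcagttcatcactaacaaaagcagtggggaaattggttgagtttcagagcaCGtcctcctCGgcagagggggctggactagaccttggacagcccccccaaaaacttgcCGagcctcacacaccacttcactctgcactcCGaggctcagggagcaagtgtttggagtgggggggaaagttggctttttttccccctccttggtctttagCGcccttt
Gm10863 (chr15:79165816-79166115, plus strand): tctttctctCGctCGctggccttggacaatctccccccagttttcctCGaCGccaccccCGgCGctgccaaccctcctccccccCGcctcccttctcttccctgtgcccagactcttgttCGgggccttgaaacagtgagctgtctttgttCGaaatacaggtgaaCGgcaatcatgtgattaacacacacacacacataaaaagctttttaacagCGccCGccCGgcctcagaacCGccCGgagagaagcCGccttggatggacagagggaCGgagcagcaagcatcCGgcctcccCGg

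The 6 promoters differ in CpG content. Mirc35hg held 35 CpGs in 300 bases, Chaserr and Tunar 30 each, Gm10863 19, Dancr 18 and C130071C03Rik 7. The observed number over that expected from the C and G content was 0.946 for Mirc35hg, 0.833 for Tunar, 0.826 for Chaserr, 0.766 for Gm10863, 0.649 for Dancr and 0.329 for C130071C03Rik. The marked regions did not always cover the start itself: the Mirc35hg start lay between its 2 regions, 271 bp from the nearer one, while the regions at Tunar and Chaserr overlapped the start.

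A lncRNA start lay within 1 kb of 117 of the 622 regions (18.8%, exact binomial 95% interval 15.8% to 22.1%, counting error only). A further 91 regions lay at other parts of lncRNA genes, 86 within 1 kb of a pseudogene, 15 near a tRNA gene and 16 near another non-coding gene, while 297 (47.7%) had no annotated non-coding gene within 1 kb. Each region was counted once, in the first class that applied. The order was lncRNA start, tRNA gene, other part of a lncRNA gene, pseudogene, other non-coding gene. Intergenic regions found in a single library had a lncRNA start in 7.50% of 2027 cases and no annotation in 66.1%. The share with a lncRNA start was 21.3% of regions in all 4 libraries, 16.5% of those in both untreated libraries only and 11.7% of those in both neomycin libraries only. Without the regions of high local background described further on, which are 38.3% of the last class, these shares were 30.4%, 20.4% and 18.9%. Seen from the other side, 123 of 7284 intergenic lncRNA starts (1.69%) lay within 1 kb of a reproducible region, and they belonged to 105 of 5978 lncRNA genes.

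The lncRNA starts near these regions were rich in CpG. Their median GC content was 57.3%, against 46.7% at the 7029 starts with no region within 1 kb, and the median number of CpGs per promoter was 16 against 3. The median observed over expected CpG was 0.641 near a reproducible region, 0.487 at the 132 starts near a region of 1 library only, and 0.204 at starts without a region. Protein-coding promoters of the same table had a median of 0.574. A ratio above 0.6 was reached by 56.1% of the starts near a reproducible region and 4.44% of the starts without one. Gene starts that share a promoter count more than once here, and the values are a description of the promoters.

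**Figure D1:**
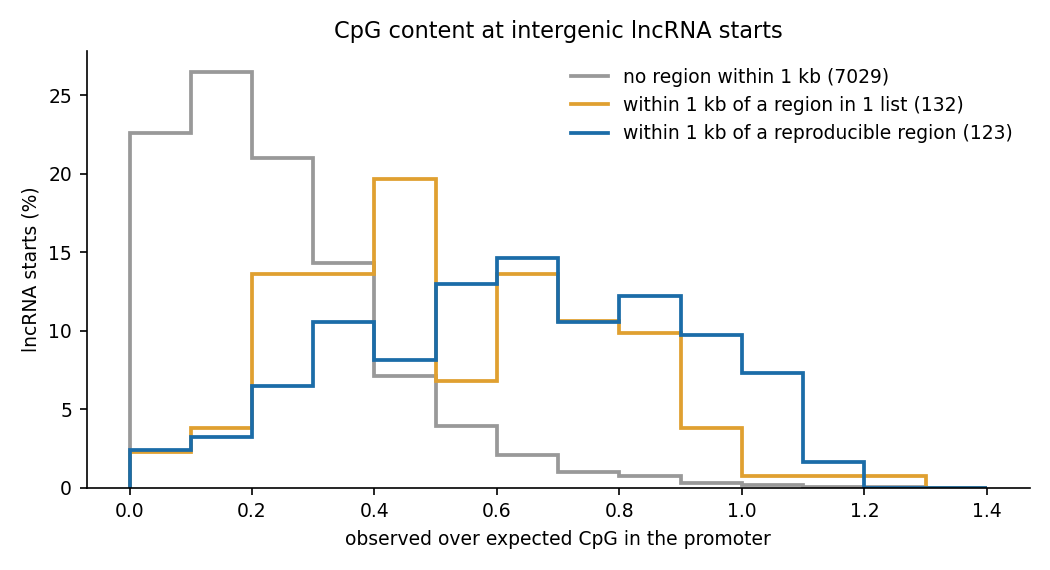
Observed over expected CpG (x axis, bins of 0.1) in the 300-base promoters of intergenic lncRNA starts, as the percentage of starts in each state (y axis). Starts near a reproducible region (blue) and near a region of 1 library (yellow) lie to the right of the starts with no region (grey), with medians of 0.641, 0.487 and 0.204.

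The letters of 2 promoter motifs were counted in the same promoters. The GC box GGGCGG, searched on both strands, was present in 52.0% of the 123 promoters near a reproducible region, 41.7% of those near a region of 1 library, 7.88% of those without one and 35.9% of all 32620 promoters in the table. The letters TATAAA, also on both strands, were present in 8.94%, 14.4%, 17.9% and 13.7% in that order. The 26 starts whose only regions were in all 4 libraries had a median CpG ratio of 0.654, the 23 with regions in the untreated libraries only 0.485, and the 4 with regions in the neomycin libraries only 0.671. A match is a description of these letters and not a binding site.

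Of the 101 lncRNA genes whose start was the nearest to a region, 10 have miRNAs within their bounds, counted on either strand. The miRNA within 5730522E02Rik, Mir6372, lies on the opposite strand. Other regions lay at miRNA hairpins themselves. miRNAs are short RNAs that pair with target mRNAs through bases 2 to 8, the seed. Of 320 intergenic miRNA genes in the RefSeq table, 11 (3.44%) had a reproducible region within 1 kb of the hairpin, from 10 regions, and 8 had a region of a single library. The mature sequences below are those whose host start or hairpin was marked and that are known in ear, neural or epithelial development or cell growth, with the seed in capitals.
miR-183-5p: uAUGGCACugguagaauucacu
miR-96-5p: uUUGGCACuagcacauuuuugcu
miR-182-5p: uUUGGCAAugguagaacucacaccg
miR-9-5p: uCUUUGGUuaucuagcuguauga
miR-15a-5p: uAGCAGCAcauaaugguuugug
miR-16-5p: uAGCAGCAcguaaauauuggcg
miR-132-3p: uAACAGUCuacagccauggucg
miR-212-3p: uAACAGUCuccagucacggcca
miR-193a-3p: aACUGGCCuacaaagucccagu
miR-193b-3p: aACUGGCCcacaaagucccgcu
miR-137-3p: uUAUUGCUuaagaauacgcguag
let-7i-5p: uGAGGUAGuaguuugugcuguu
miR-200c-3p: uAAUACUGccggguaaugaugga
miR-203-3p: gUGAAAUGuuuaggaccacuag

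Among these sequences 3 seeds occurred more than once. miR-15a and miR-16, both inside Dleu2 and known to restrain the cell cycle, share AGCAGCA. miR-132 and miR-212, which lie side by side, share AACAGUC. miR-193a and miR-193b, from separate chromosomes, share ACUGGCC.

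Mirc35hg, the host of the miR-183 cluster, had the 2 regions given above. The one in all 4 libraries had summed peak lengths of 190 and 135 bp in the neomycin libraries and 740 and 262 bp in the untreated libraries, with summit pileups (reads stacked at the highest point) of 6, 12, 11 and 9. The second region, 294 bp from the start on the other side, had 456 and 325 bp in the untreated libraries and no peak after neomycin. Both lay about 20 kb beyond the end of Nrf1, 20.9 kb for the first and 19.8 kb for the second. Loss or mutation of miR-96 is a known cause of hearing loss in mice and people.

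Dleu2, the host of Mir15a and Mir16-1, had 3 regions within 1 kb of a start. Their lengths in untreated replicates 1 and 2 were 403 and 283 bp, 803 and 265 bp, and 194 and 404 bp. Neomycin replicate 1 held a peak of 48 bp in 1 of the 3, which is the shortest length in that list, and neomycin replicate 2 held none. Gm32817, the host of Mir193b and Mir365-1, was marked in all 4 libraries with 307, 254, 897 and 640 bp in the order neomycin 1, neomycin 2, untreated 1, untreated 2. Snhg20, a snoRNA host transcript with Mir6516 within its bounds, was also marked in all 4, with 146, 110, 430 and 290 bp. Mir22hg and E130102H24Rik, the hosts of Mir22 and Mir101a, were marked in neomycin replicate 2 and both untreated libraries. At each host start named in this paragraph that had peaks in both groups, both untreated lengths exceeded the neomycin lengths, and untreated peaks were also the longer ones over the whole lists.

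At the hairpins, Mirlet7i, of the let-7 family that rises as cells differentiate, had 2 regions. The first covered the hairpin, with 110 bp in neomycin replicate 2 and 631 and 714 bp in the untreated libraries. The second, 471 bp away, had 48 bp in neomycin replicate 1 and 320 and 274 bp in the untreated libraries. Mir132 and Mir212, which neuronal activity induces, shared a region of 155 bp in neomycin replicate 2 and of 213 and 568 bp in the untreated libraries. Mir193a had 177 bp in neomycin replicate 1 and 536 and 956 bp in the untreated libraries. Mir137, a neural miRNA, and Mir203, an epithelial miRNA of the skin, were marked in both untreated libraries only, with 254 and 444 bp and with 195 and 235 bp. Mir200c, which maintains epithelial identity, had a region 593 bp away with 558 bp in neomycin replicate 2 and 347 bp in untreated replicate 1. Mir210, induced by low oxygen, had 72 bp in neomycin replicate 1 and 234 bp in untreated replicate 2. Regions limited to the 2 neomycin libraries were 0 of these 10, beside 9.65% of all members, and 10 regions are too few to read a difference from.

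**Figure D2:**
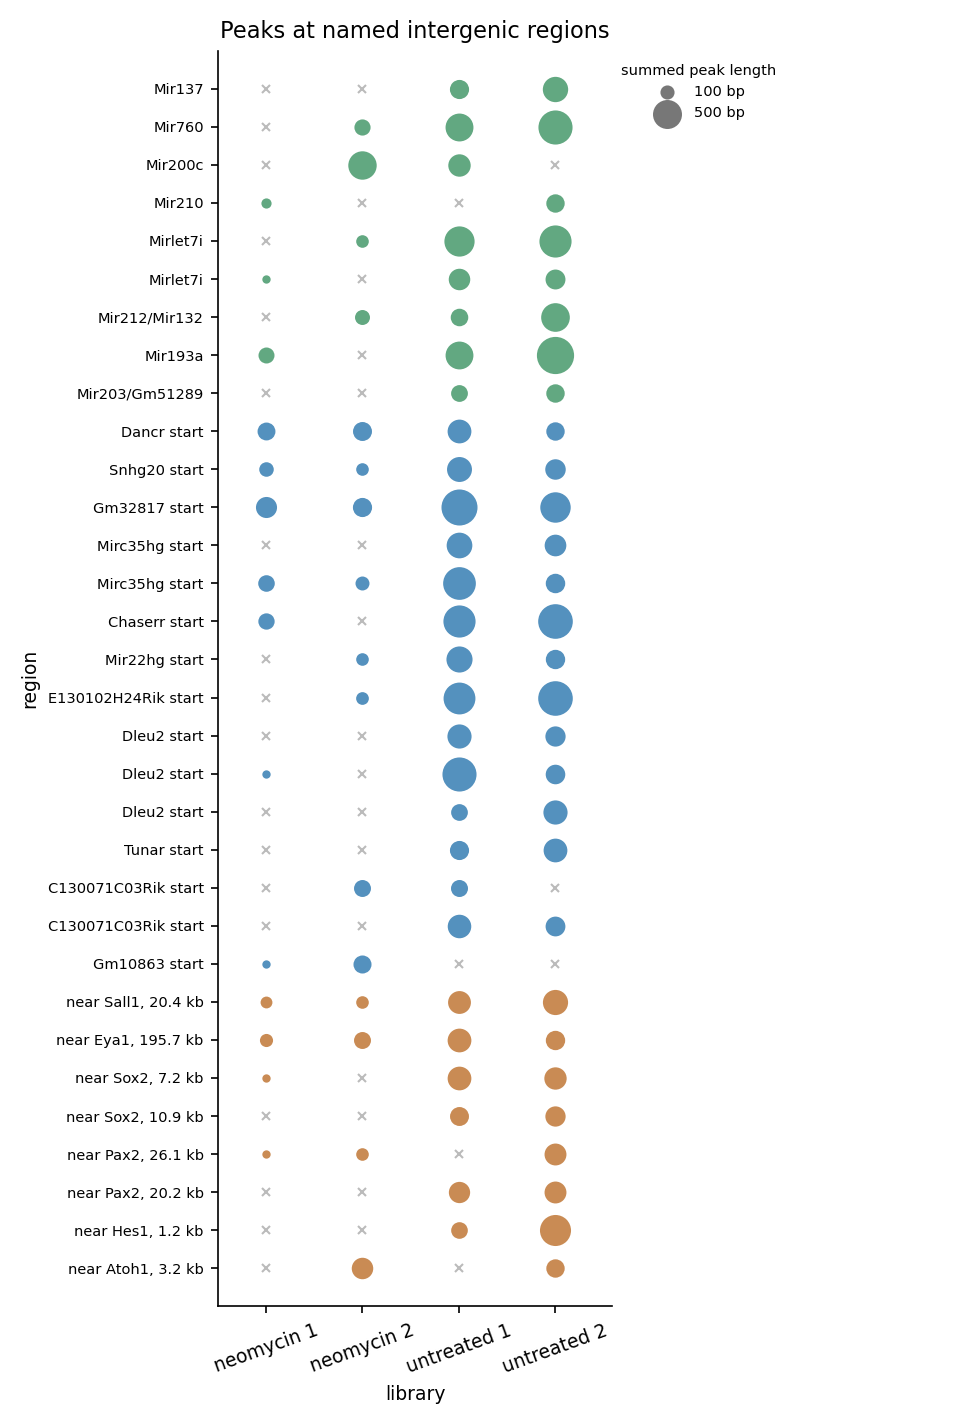
Summed peak length (dot area) in each library (columns) at regions near miRNA hairpins (green), lncRNA starts (blue) and developmental regulators (orange, with the distance to the gene end). A grey cross means no peak. Dots are larger in the untreated columns at most of the regions, and Gm10863 is the row with dots in the 2 neomycin columns alone.

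The 15 regions classed as near tRNA genes, which are short RNA polymerase III genes, had ordinary background and lay a median of 7.81 kb from a coding gene end. The region at 3 tRNA genes beside Borcs6 (chr11:69063577-69064072) was marked in all 4 libraries, with 103, 120, 304 and 496 bp. Of the 15, 4 were marked in the untreated libraries only, and 1, beside Trim7, in the neomycin libraries only, with 87 and 259 bp. These patterns made up 22.3% and 9.65% of all members, and 15 regions are too few to read a difference from. A stretch of 15.1 kb on chromosome 1 near Fcgr3 held 4 regions, 3 of them at tRNA genes.

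Presence across the libraries was uneven. Of the 622 regions 352 were found in 2 libraries, 162 in 3 and 108 in all 4. Neomycin replicates 1 and 2 held a peak in 357 and 339 of them, and untreated replicates 1 and 2 in 512 and 414. The 108 regions in all 4 libraries were 17.4% of the members, beside 22.5% of all 12441 reproducible regions. Both untreated libraries and neither neomycin library marked 139 regions (22.3%, beside 17.2% of all). Both neomycin libraries and neither untreated library marked 60 (9.65%, beside 5.02% of all). The other 315 had peaks in both groups but not in all 4 libraries. Because every member needed a peak in 2 lists, nothing further is read from these shares.

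**Figure D3:**
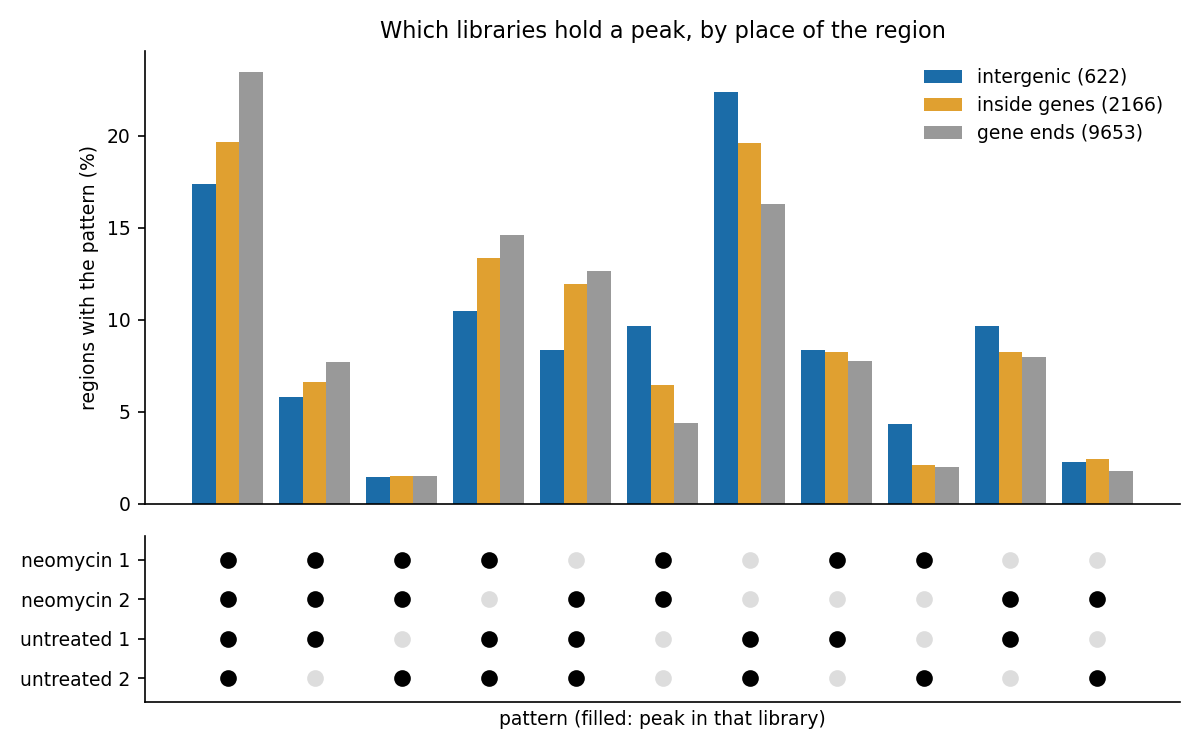
Percentage of reproducible regions with each presence pattern (bars, y axis), for intergenic regions, regions inside genes and regions at gene ends, with the libraries of each pattern marked by filled dots below. Intergenic bars are lowest of the 3 kinds at all 4 libraries (17.4%) and highest for both untreated (22.3%) and both neomycin libraries only (9.65%).

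As a description of what the rule kept, 23.5% of 2649 intergenic regions were found in at least 2 libraries, beside 60.3% of 16011 gene-end regions and 39.8% of 5444 regions inside genes. Neomycin replicate 1 alone accounted for 953 of the 2027 intergenic regions found once. The counts by group also moved with strength and library. With only peaks of -log10 q of at least 10, 86 members were left, 60 in the untreated libraries only, 1 in the neomycin libraries only and 2 in all 4. Without untreated replicate 1, 360 members were left and the regions in the neomycin libraries only numbered 91 in place of 60.

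A part of the regions stood on high local background. The authors' caller gives a fold enrichment beside the pileup, and the pileup plus 1 divided by the fold follows the background it assumed. In 129 of the 622 regions (20.7%, 17.6% to 24.1%) this background was over 2 times the median of the list in every library with a peak. The same held for 0.124% of the 9653 gene-end regions and 3.28% of the 2166 regions inside genes. Of the 108 regions in all 4 libraries 39 had high background, as did 31 of the 139 in the untreated libraries only and 23 of the 60 in the neomycin libraries only. A lncRNA start lay near 2.33% of the high-background regions and 23.1% of the 493 others. Among those 493 the counts were 69 in all 4, 108 in the untreated only and 37 in the neomycin only. What gives rise to the background was not tested.

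**Figure D4:**
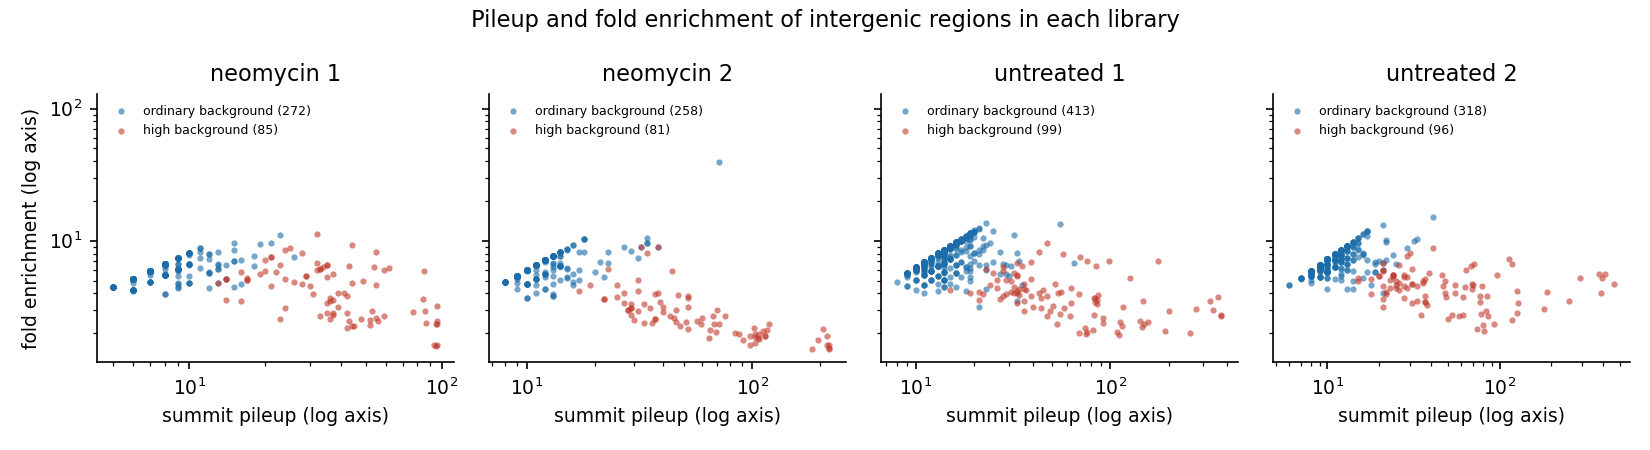
Summit pileup (x axis, log) against the authors' fold enrichment (y axis, log) for intergenic regions with a peak in each library, 1 panel per library. High-background regions (red; 85, 81, 99 and 96 regions from left to right) have high pileups at low fold enrichments, and the other regions (blue) rise along a steep edge.

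The regions with the highest pileups were of the high-background kind. The widest region, chr9:2999865-3038448, lay 297 kb from Alkbh8, spanned 38584 bp and held pileups of 96, 207, 357 and 409 in the order neomycin 1, neomycin 2, untreated 1, untreated 2. Its peaks summed to 16713, 25270, 38421 and 38584 bp, and its background was at least 40.3 times the list median in every library. A group of 4 regions within 5.37 kb on chromosome 2 (chr2:98662091-98667463), about 1030 kb from Lrrc4c, were marked in all 4 libraries with backgrounds of at least 27.5 times the median. A region 114 kb from Gm2244 (chr14:19415563-19419836) had pileups of 96, 215, 327 and 378. The X chromosome held 31 members, beside 19 to 48 on each autosome, 23 of the 31 with high background. It held only 73 reproducible regions of any kind, beside 382 to 1014 on each autosome. Members were therefore 42.5% of its reproducible regions, against 2.36% to 8.96% on the autosomes. On the X chromosome 18 members lay within 27.9 kb between Mid1 and Asmt, 15 with high background. Of these 18, 9 were in the untreated libraries only and none in the neomycin libraries only, beside 22.3% and 9.65% of all members. Such close neighbours are not independent of each other, so no difference is read from them.

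Regions of ordinary background in all 4 libraries were ranked by the q-value rank of their weakest peak. The first was chr8:19784594-19785324, 31.0 kb from 4930467E23Rik at the annotated non-coding gene Gm10060, with 433, 385, 689 and 713 bp. Another on chromosome 8, chr8:20296516-20297534, lay 40.1 kb from Gm15319 with 512, 855, 575 and 751 bp. A pair of regions near Zfp980, a zinc-finger gene, had 87, 328, 542 and 627 bp and 195, 534, 839 and 775 bp. Between Ezh2 and Pdia4 on chromosome 6, a stretch of 97.6 kb held 9 regions and the next 25.6 kb held 6 more. Of these 15, 9 were in all 4 libraries and 3 in the neomycin libraries only, beside 17.4% and 9.65% of all members. In all, 25 stretches of up to 100 kb held at least 3 regions, with 115 of the 622 members (18.5%), so neighbouring members are not independent of each other.

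Distance to protein-coding genes spread over 3 orders of magnitude. The median distance to the nearest gene end was 18.8 kb, with quartiles of 6.31 and 50.9 kb and a range from 1.008 kb at Sp4 to 1956 kb at Slc39a10. Within 5 kb lay 138 regions, 325 lay between 5 and 50 kb, 69 between 50 and 100 kb, 79 between 100 and 500 kb and 11 farther away. Just inside the limit of 1 kb were the regions 1008 bp from Sp4 and 1011 bp from Kcnh8, and just outside those 982 bp from Gadd45b and 966 bp from Ap3m2. The gene's strand was known for 484 regions, of which 216 lay upstream of the start and 268 downstream of the end. The 2027 intergenic regions of a single library lay farther out, at a median of 34.5 kb, and those of neomycin replicate 1 alone at 62.4 kb.

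The median distance was 28.6 kb for regions in all 4 libraries, 20.0 kb for those in both untreated libraries only and 12.9 kb for those in both neomycin libraries only. Without regions of high background the medians were 24.7, 19.3 and 7.28 kb. The farthest regions were again mostly of high background: 8 of the 11 beyond 500 kb. The other 3 lay 1140 kb from Iftap, 580 kb from Tns3 and 551 kb from Dsel. Over the members with a peak in each library the medians were 21.1, 19.9, 19.9 and 20.5 kb, a spread of 0.560 kb (SD, n = 4 libraries), and many members count in more than 1 of them.

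**Figure D5:**
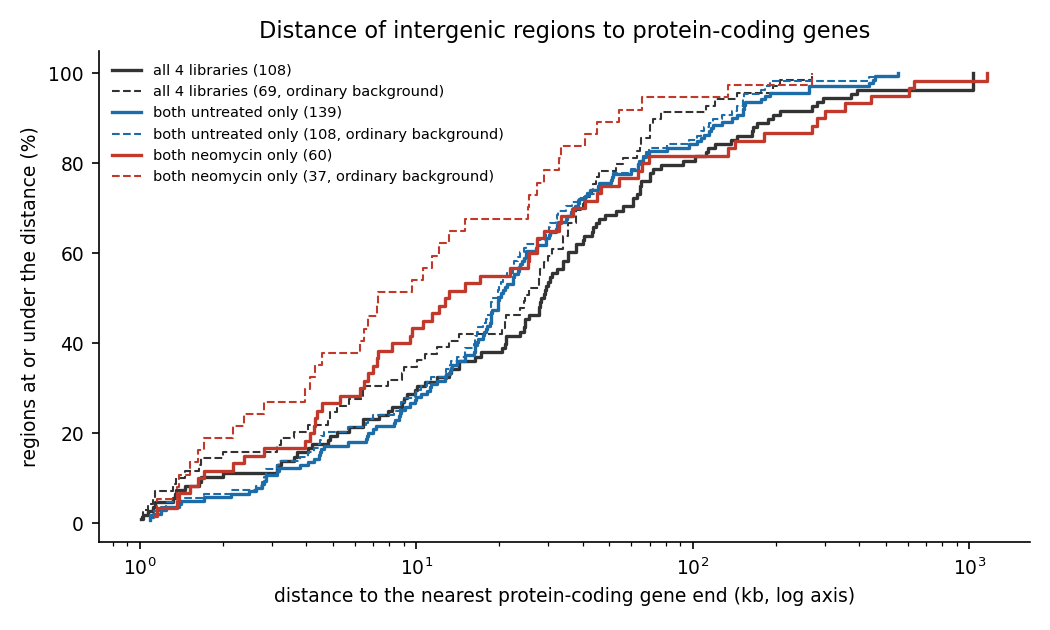
Cumulative percentage of regions (y axis) by distance to the nearest protein-coding gene end (x axis, kb, log), for regions in all 4 libraries, both untreated only and both neomycin only. Solid lines are all regions and dashed lines those of ordinary background. The neomycin-only lines lie to the left of the others between 5 and 20 kb, with medians of 12.9 kb (all) and 7.28 kb (ordinary background).

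The nearest coding gene itself had a marked end in at least 1 library for 390 of the 622 regions (62.7%). For intergenic regions of a single library this held in 1142 of 2027 (56.3%), and the share over all coding genes was not counted. For the following counts the merged regions within 1 kb of a gene's ends were taken. A gene was marked in 1 group when these held peaks of 1 or both libraries of that group, and of neither of the other. A library counted even where its own peak in such a region lay farther from the end, unlike in the check of the cell type. Of the 139 regions in the untreated libraries only, the nearest gene's ends were unmarked in 63, marked in all 4 libraries in 24, in the untreated group alone in 19 (13.7%) and in the neomycin group alone in 8 (5.76%). Of the 60 regions in the neomycin libraries only, these counts were 26, 18, 4 (6.67%) and 1 (1.67%). Of the 108 regions in all 4 libraries they were 43, 29, 16 (14.8%) and 2 (1.85%), so the share of neighbours marked in the untreated group alone was close in regions of the untreated libraries only and of all 4.

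Transcription factors of development were the neighbours of some of the regions. The nearest gene of 38 regions (6.11%) was 1 of 153 such factors, 26 genes in all, against 0.974% of gene-end regions and 4.0% of intergenic regions of a single library. These factors are 0.707% of coding genes. The list was chosen with earlier results of these data known, and its long intergenic neighbourhoods were not adjusted for. Of the 38 regions 4 were in all 4 libraries, 9 in the untreated only and 2 in the neomycin only. Over all members these patterns made up 17.4%, 22.3% and 9.65%. Of the 38 regions 1 had high background, and their median distance was 7.96 kb.

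The otic regulators among them make and maintain the sensory epithelium. Sox2, which specifies the prosensory domain, had a region 7.20 kb before its start (chr3:34642258-34642791) with 48 bp in neomycin replicate 1 and 389 and 345 bp in the untreated libraries, and 1 beyond its end at 10.9 kb (chr3:34663377-34663660) with 248 and 284 bp in the untreated libraries only. Eya1, a transcriptional coactivator needed for ear development, had a region 196 kb away (chr1:14506767-14507239) in all 4 libraries, with 119, 199, 390 and 259 bp.

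Pax2, another early otic factor, had no marked gene end in any library but 2 regions upstream. The region at 20.2 kb (chr19:44725951-44726412) had 313 and 332 bp in the untreated libraries only, and the one at 26.1 kb (chr19:44720193-44720546) had 48 and 110 bp in the neomycin libraries and 332 bp in untreated replicate 2. Sall1, a zinc-finger factor of organ development, had 1 at 20.4 kb in all 4 with 97, 110, 361 and 438 bp. Pou3f2, a neural POU factor, had 1 at 1.13 kb in all 4 with 48, 240, 565 and 373 bp.

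Several factors had more than 1 region. Nr2f1, a nuclear receptor involved in cochlear patterning, had 4 between 3.70 and 11.1 kb, in 4 different patterns and with a peak in untreated replicate 1 in 3. Irx5 had 4, 2 of them beside the start of the lncRNA Crnde, and each included untreated replicate 1. Irx2, Irx4, Msx2, Klf4 and Lmx1b each had 1 region in both untreated libraries only, at 5.66, 2.15, 3.19, 119 and 16.4 kb. Sox10, which marks the otic epithelium and glia, had the Gm10863 region at 1.71 kb in both neomycin libraries only, with 48 and 225 bp and pileups of 6 and 9. The 48 bp are the shortest length in the list of neomycin replicate 1. By q-value its peaks ranked low, at percentiles 27.3 and 18.8 of the 2 neomycin lists. The gene end of Sox10 itself was marked in all 4 libraries.

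Other lists touched fewer regions. Among 37 supporting and progenitor genes 8 were the nearest gene of 11 regions (1.77%, beside 1.53% of intergenic regions of a single library and 0.394% of gene-end regions), which include those at Sox2, Pax2, Eya1 and Sox10. Hes1, a Notch effector that keeps supporting cells from becoming hair cells, had 1 at 1.19 kb (chr16:30063497-30064163), with 192 and 667 bp in both untreated libraries only. The gene end of Hes1 itself was marked in both neomycin libraries and untreated replicate 1, and not in untreated replicate 2. Notch3, the receptor, had 1 region at 6.56 kb, also in both untreated libraries only, with 208 and 439 bp. Those 2 were the regions of the 28 Notch pathway genes (0.322% of members, beside 0.247% and 0.269% in the same order). Among 29 hair cell genes 1 had a region, Atoh1, with 319 bp in neomycin replicate 2 and 234 bp in untreated replicate 2 (chr6:64734415-64734917). It was 0.161% of members, beside 0.0987% and 0.0932% in the same order.

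Of 54 Wnt pathway genes 6 were neighbours of 1 region each. Those regions were 0.965% of members, beside 0.641% of intergenic regions of a single library and 0.383% of gene-end regions. Axin2, a feedback inhibitor and target of the pathway, had 1 at 60.8 kb in all 4 libraries (chr11:109011620-109012186) with 272, 231, 488 and 567 bp, and its background was at least 5.51 times the list median. Wnt10a and Wnt2b, both ligands, Ccnd1, a cyclin target, Nkd1 and Sfrp2, both inhibitors, had regions in 2 or 3 libraries across both groups, with distances from 1.57 kb (Ccnd1) to 66.9 kb (Nkd1). The 4 regions of the FGF, BMP and Hedgehog list belonged to Id2, Smad7 and Dusp6 (0.643%, beside 0.888% and 0.466% in the same order). Of 35 p53 response and apoptosis genes 1 was a neighbour, Gadd45a, at 76.5 kb in neomycin replicate 2 and untreated replicate 1 (0.161%, beside 0.0493% and 0.269%). Of 40 stress genes 5 were neighbours of 5 regions (0.804%, beside 0.543% and 0.404%). The region near Hsp90b1, a chaperone of the endoplasmic reticulum, was marked in all 4 libraries with 97, 129, 366 and 275 bp. The neuron, glia, mesenchyme and endothelium lists had 4, 2, 1 and 1 regions, 3 of the 4 neuronal ones being high-background regions near Stmn2. The melanocyte, macrophage and blood, and imprinted lists had none.

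Regions marked in the neomycin libraries only had a median length of 60.5 bp in neomycin replicate 1 and 164.5 bp in replicate 2, beside medians over all members of 87 and 166 bp there. Regions marked in the untreated libraries only had medians of 272 and 300 bp in untreated replicates 1 and 2, beside 322.5 and 336 bp over all members. Among the neomycin-only regions of ordinary background, the first by the rank of its weaker peak lay 40.9 kb from Nkx2-3, a homeobox factor (chr19:43571256-43571410). In neomycin replicates 1 and 2 it had 59 and 126 bp and pileups of 9 and 13. Mex3b, an RNA-binding protein gene, had another neomycin-only region at 1.38 kb (chr7:82865727-82865949) with 171 and 118 bp. Olfr161, Casp1, Triqk, Impact and Hsd17b10 were neighbours of further highly ranked neomycin-only regions, each with a background at least 4.08 times the list median.

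Regions marked in the untreated libraries only included, by the same rank, those at Tunar, 114 kb from Tcl1, with 253 and 390 bp, and at C130071C03Rik (chr13:83730556-83731039), 63.5 kb from Mef2c, with 452 and 271 bp. The second was 1 of 4 regions within 3.30 kb, 3 of them in the untreated libraries only. Of the 10 highest-ranked, those near Stmn2, Chrm3 and Zfp825 had high background. Mos, a germ-cell kinase gene, and Ms4a20 were neighbours of others, at 2.87 and 4.27 kb.

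Peak length was compared because the rule set no limit on it. The choice was still not free of length, since longer peaks overlap those of another list, or reach a gene end, more readily. In the order neomycin 1, neomycin 2, untreated 1, untreated 2, median summed lengths of members were 87, 166, 322.5 and 336 bp, and those of gene-end regions 96, 162, 382 and 374 bp. Members were shorter in 3 of 4 libraries, by a mean log2 difference of -0.13 ± 0.12 (SD, n = 4 libraries), and an exact two-sided sign-flip permutation test over the libraries gave p = 0.25, where the smallest p possible is 0.125. The difference turned to 0.19 (p = 0.125, same exact test) with only peaks of -log10 q of at least 10, and was -0.21 with members shorter in 4 of 4 libraries (p = 0.125, same exact test) without regions of high background. Intergenic regions were thus not shown to differ in length from gene-end regions.

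Between the groups, 2796 regions in all 4 libraries were tested with limma on log2 summed length centred on the median of each library, and the 108 members were read from that fit. No region passed an adjusted p of 0.05 (0 of 2796, 0%), and the smallest adjusted p was 0.303. At an unadjusted p under 0.05 limma gave 14 of the 108 members (13.0%) and 287 of all 2796 (10.3%). The median untreated minus neomycin difference was -0.29 on the log2 scale over the members and -0.04 over all regions, with 37 members above and 71 below 0. Without centring the direction was the opposite, with a median of 1.38 over the members and 1.62 over all regions, and 106 members above and 2 below 0, so the centred values are relative to the shift of all regions. It was -0.28 for the 69 members of ordinary background and -0.29 for the other 39. The member with the lowest unadjusted p was the one next to Ppara, a lipid-sensing nuclear receptor gene, at 1.73 ± 0.49 (SE, limma adjusted p = 0.303). Leaving out neomycin replicate 1 or 2 gave 218 or 423 calls over all regions, 7 or 23 of them members, in a fit where the lone neomycin library is assumed to vary like the untreated ones.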

How the data were processed

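Each H3K4me3 library has a deposited list of its own peaks. The submitters' processing notes name the build mm10 and, as tools, CASAVA 1.4, Bowtie2, MACS2 and deepTools. Parameters, and how the inputs were used, were not given in the sources used here. The file headers name a position, a length (bp) and a pileup signal for every deposited peak. The deposited lists also hold the authors' fold enrichment (a ratio) and -log10 p-value and q-value of each peak, used here only to rank, filter or describe peaks within a list.

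Peaks of chromosomes 1 to 19 and X that overlapped by at least 1 bp were merged. Regions were placed against 21631 protein-coding genes of RefSeq GRCm38.p6, and strands and lncRNA starts came from the RefSeq promoter table, which holds 17274 of those coding genes and 9520 of 12697 lncRNA genes. The members, the gene lists and the tests were chosen with earlier results of these data known. All list genes matched the annotation.

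Summed peak lengths (log2) of regions in all 4 libraries were compared with limma 3.58.1 (R 4.3.3, Benjamini-Hochberg adjustment). The merging rule and the limma step were tested on simulated data. Shares have exact Clopper-Pearson intervals, which treat regions as independent although neighbouring members are not. Regions were named by the rank of their weakest peak's q-value within its list: the first 12 in all 4 libraries, the first 10 of each group, the 10 farthest, up to 4 per gene list, up to 12 at non-coding genes, and stretches of 100 kb with at least 3 members, and not every one of them is printed. The lncRNA and miRNA loci named beyond this, and the limit of 2 times the median background, were chosen after their values were seen. Alternatives were stricter q-values, equal list lengths, other distances and merging, all gene types, and leaving out each library. The work used Python 3.11.15 and pandas 2.3.3. Some regions near named genes are not reported here.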

Additional observations from a re-analysis of the deposited data

How the results depend on the processing

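The lists give no read totals, so what depth limits could not be measured, and with 2 libraries per group presence was not tested. Against 622 regions, 139 in the untreated libraries only, 60 in the neomycin libraries only, 108 in all 4 and a median distance of 18.8 kb, peaks with -log10 q of at least 10 gave 86, 60, 1, 2 and 35.7 kb, and avoiding genes of every type gave 297, 66, 34, 51 and 9.15 kb (there to a gene of any type). Median distances were 19.8 kb with lists of equal length, 24.3 and 29.3 kb when 2.5 and 5 kb were kept from gene ends, and 19.9 kb with peaks up to 500 bp apart merged, while the counts stayed within 1.5 times. Leaving out each library gave 360 to 489 regions, 193 to 206 in the untreated libraries only, 66 to 91 in the neomycin libraries only and medians of 19.1 to 20.6 kb; a count in all 4 then has no value. Leaving out regions of high background, an alternative chosen after seeing the data, gave 37 in the neomycin libraries only, 69 in all 4 and 16.3 kb. The length difference to gene-end regions turned from -0.13 to 0.19 with -log10 q of at least 10. For peak length between groups, 0 of 2796 regions passed in the limma fit. With the replicate block 0 passed as well (smallest adjusted p 0.0609), and the numbers pair no samples in the labels (correlation of same-numbered deviations -0.026, across regions). Without centring 1074 passed, all longer in untreated libraries, because the median region then differs by 1.62 on the log2 scale. With the longest single peak 4 passed, and leaving out each library gave 0 to 423. Apart from those whose construction shows it (fewer peaks, other genes, no centring), the cause was not tested.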
